A study of Arabidopsis thaliana with 6 samples.

Results

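The genes described here encode 2 families of Arabidopsis thaliana enzymes that attach a small polar group to other molecules, the UDP-dependent glycosyltransferases (UGT) and the glutathione transferases (GST). The rule for members used symbols and not values, though it was set with earlier results of these data known. A probe set, the group of oligonucleotides on the array that reports 1 transcript, was a member if the platform annotation gave it 1 gene with a symbol of UGT followed by 2 digits and a letter, or of GST or ATGST followed by the class letter F, U, Z, T or L and a number. This gave 61 of 22746 probe sets, 47 UGT and 14 GST, each for a different locus, and all 61 matched a gene of the RefSeq TAIR10.1 table by gene ID. In that table, 64 UGT and 49 GST loci carry such a name as symbol or synonym, so the members cover the UGT family more fully than the GST family. The GST members were 11 of the tau class (U), 2 of the phi class (F) and 1 of the lambda class (L), and no zeta (Z) or theta (T) member was among them. The UGT members belonged to 11 families, numbered 71 to 74, 76, 78, 80, 84, 85, 87 and 88.

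UGTs move a sugar from a nucleotide sugar to hormones, flavonoids, lignin precursors and foreign chemicals, which usually makes the acceptor more soluble and often inactive. Some UGTs act on auxin, cytokinin, abscisic acid, salicylic acid or brassinosteroids, and so help to set the level of the free hormone. GSTs join the tripeptide glutathione to reactive or foreign molecules or carry such molecules, and many tau and phi members are known to be induced by herbicides, oxidants and hormones. Lambda GSTs differ from these in that they reduce glutathione-bearing compounds.

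The study used whole seedlings of the Columbia ecotype, a wild-type strain, grown for 10 d on agar medium in days of 16 h light and 8 h dark. In 3 samples the seedlings then spent 8 h in liquid medium with 1e-07 M 2,4-D, a synthetic auxin. The other 3 samples received the same 1e-07 M 2,4-D together with 1e-06 M brassinazole, an inhibitor of brassinosteroid synthesis. Every sample therefore contained 2,4-D, and neither untreated seedlings nor brassinazole by itself could be compared here. The contrast addresses how the inhibitor alters transcript levels in the presence of auxin. Per the labels, each batch of RNA combined 3 seedlings, and the titles call the samples biological replicates. Whether each replicate had its own pool is not clear from the labels, so p-values may measure only technical spread.

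Signals are linear MAS5 intensities in arbitrary units. Array medians ran from 188.8 to 195.6, and Spearman's rho between pairs of arrays was 0.9855 to 0.9893 within groups and 0.9808 to 0.9854 between them. Of the shoot and root marker genes listed, 1 of 8 (RCA) and 3 of 8 (PYK10, EXPA7 and EXPA18) had a named probe set. The shoot marker RCA (Rubisco activase) read 22950 to 29050 over all 6 arrays and the root glucosidase PYK10 13500 to 17410. The 3 root markers summed to 14020 to 17860 on the auxin arrays, against 14840 to 17710 on the brassinazole arrays, and nearly all of this sum is PYK10. The 6 floral and seed marker genes had no named probe set and were not analysed here. The other 2 root markers, the root hair expansins EXPA7 and EXPA18, did not overlap between the groups. They read 147.4 to 162.1 and 162.8 to 203.7 with brassinazole, against 173.3 to 223.3 and 206.2 to 306.9 without it, and did not pass the test (limma adjusted p = 0.0916 and 0.0806). Other values outside the UGT and GST genes also moved with the groups. PDC2, a pyruvate decarboxylase of the low-oxygen list, rose from 977 ± 132 to 1516 ± 270.2 (SD, n = 3 each, limma adjusted p = 0.00817). Of the 5 genes of that list, 2 had a named probe set, and their summed signal was 1336 to 1693 without brassinazole and 1682 to 2110 with it, while the lactate dehydrogenase LDH1 read lower with it (397.9 to 477.4 against 479.2 to 580.1, adjusted p = 0.0823). The 5S rRNA control read 230 to 284 with brassinazole against 134 to 174, and the 3' to 5' ratio of the actin control, a measure of RNA integrity, was 18.8 to 21.1 against 12.3 to 17.3. The same ratio of the ubiquitin control went the other way, at 2.59 to 3.0 against 3.14 to 3.54, and that of the GAPDH control overlapped, at 1.38 to 1.69 against 1.26 to 1.41. The 25S rRNA control read 981 on the auxin 1 array and at most 215 on the other 5. Of 14 control probe sets for spiked bacterial transcripts, 12 were highest on the brassinazole 3 array, among them BioB-5 at 338, against at most 204 on the other arrays, and BioC-3 at 285, against at most 186. Several spikes also read higher on every brassinazole array than on any auxin array. BioC-3 read 179 to 285 against 132 to 161, and BioB-M 244 to 291 against 194 to 236. Others overlapped, such as BioDn-3 at 2660 to 3800 against 2560 to 2720. The spike differences thus follow the groups as well as 1 array. The part of these differences in the results below was not tested. GH3.3, an auxin-inducible enzyme, fell from 7533 ± 249 to 1571 ± 113 and serves as a reference for an auxin-responsive gene on the same arrays.

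Of both families together 6 genes passed the test, 3 GST and 3 UGT, and those with the largest changes were higher with brassinazole. Changes are differences of log2(signal + 16), brassinazole plus 2,4-D minus 2,4-D alone, and limma p-values were adjusted over all 17059 probe sets tested at a threshold of 0.05. Of the 61 members, 48 were bright enough to be tested, 36 of 47 UGT and 12 of 14 GST. Among the 12 GST members, 3 rose and 0 fell, which is 25%, and 5 had an unadjusted p under 0.05. Among the 36 UGT members, 2 rose and 1 fell, which is 8.33%, and 7 had an unadjusted p under 0.05. Over all probe sets tested, 7.52% passed, 3.44% higher and 4.08% lower, and 21.9% had an unadjusted p under 0.05. The UGT share was thus close to that of all probe sets, and no test of either family as a list, or of the difference between the shares, was made. With dim probe sets left out up to the 50th percentile, the order of the shares turned, with 1 of 8 GST members (12.5%) and 3 of 22 UGT members (13.6%). Over all probe sets tested at that filter, 9.35% passed. The UGT count was 1 of 36 (2.78%) without auxin 2, without auxin 3, without brassinazole 1 and without brassinazole 2. In these fits 4.81% to 5.92% of all probe sets passed. Without both auxin 1 and brassinazole 3 the UGT count was 2 of 37 (5.41%) and the GST count 3 of 12 (2 higher, 1 lower), beside 4.78% of all probe sets. The 3 values of each group did not overlap in 6 of 12 GST members, 3 higher and 3 lower, and in 9 of 36 UGT members, 5 higher and 4 lower. These are 50% and 25%, against 27.2% of all probe sets tested, 12.9% higher and 14.3% lower. In bulk samples such as these, fewer cells of a type and less RNA per cell cannot be told apart.

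The median member differed little between the groups. The median log2 change was 0.00 for UGT and 0.07 for GST, beside -0.01 for all probe sets tested, and the median size of the change regardless of sign was 0.13, 0.20 and 0.13. Both families split about evenly by sign, with 19 positive and 17 negative UGT changes and 7 positive and 5 negative GST changes. On the 3 brassinazole arrays the median difference of the tested UGT members from their auxin means was -0.01, 0.00 and -0.04, and that of the GST members 0.07, 0.04 and 0.04. A log2 change of at least 0.5 was seen in 3 of the 48 tested members (GSTF13, GSTU28 and UGT71C1), and in 4.99% of all probe sets tested.

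**Figure D1:**
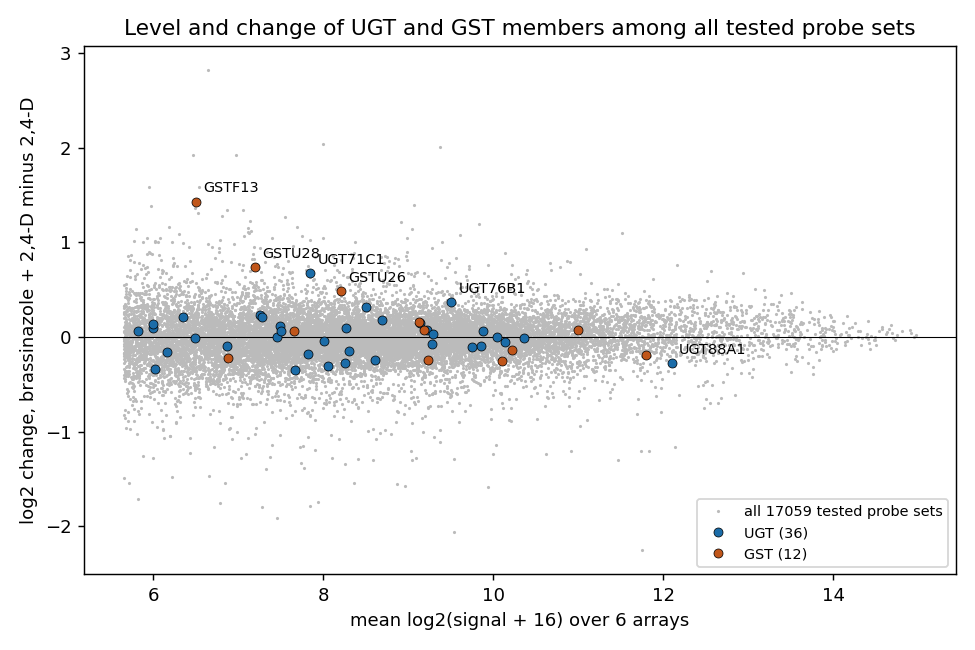
Log2 change of the tested probe sets (vertical axis, brassinazole plus 2,4-D minus 2,4-D alone) against their mean log2(signal + 16) over the 6 arrays (horizontal axis). Grey points are all 17059 probe sets tested, blue points the 36 UGT and orange points the 12 GST members, and the 6 members past the threshold are labelled: most members lie in the grey band near 0, and GSTF13 lies above it at 1.43.

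GSTF13, a phi class member (ATGSTF13 in the platform annotation), changed most of all 48 tested members. Its signal was 42.0, 37.6 and 37.9 on the auxin arrays and 150.9, 149.7 and 102.9 on the brassinazole arrays. All 3 brassinazole values lay well above the auxin values, and the brassinazole 3 array was the lowest of its group. The mean rose from 39.2 ± 2.43 to 134.5 ± 27.4 (SD, n = 3 each), a log2 change of 1.43 ± 0.177 (SE) with a limma adjusted p of 0.000199. The probe set is dim, and the added 16 shrinks its change. Its auxin values lie in the range of the members too dim to be tested (1.19 to 47.5). Without detection calls, its presence on the auxin arrays was not determined, so the size of the change is uncertain. With an added 1 in place of 16 the log2 change was 1.735 and with 64 it was 0.935. The other phi member, GSTF4, read 172.6, 196.8 and 177.5 against 191.1, 190.1 and 190.2. These values overlap, and the 95% interval of its log2 change ran from -0.18 to 0.30.

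Of the 9 tested tau class members, 2 rose and 7 did not pass, while 3.44% of all probe sets tested passed higher. GSTU28 read 106.9, 88.2 and 98.8 with 2,4-D alone and 167.9, 183.8 and 170.5 with brassinazole. The lowest brassinazole value exceeded the highest auxin value by more than the spread within either group. Its mean went from 98.0 ± 9.40 to 174.1 ± 8.52, a log2 change of 0.74 ± 0.129 (SE; limma adjusted p = 0.00275). GSTU26 read 212.3, 261.0 and 230.3, then 349.9, 315.8 and 340.0. It rose by a log2 change of 0.49 ± 0.108 (SE; limma adjusted p = 0.0121), and this call was lost without the auxin 1 array (0.0636) and without both auxin 1 and brassinazole 3 (0.0925).

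Among the other tau members, 3 had lower values on all brassinazole arrays than on any auxin array without passing the test. The same downward separation was seen in 14.3% of all probe sets tested, and for GSTU23 the gap was narrow. GSTU20, a glutathione transferase known to interact with the jasmonate-conjugating enzyme FIN219 in far-red light responses, read 1192, 1099 and 1263 with 2,4-D alone and 1030, 971 and 980 with brassinazole. The groups do not overlap, but the log2 change was only -0.25, with a 95% interval from -0.43 to -0.07 (limma adjusted p = 0.0930). GSTU18 read 692, 615 and 607 against 545.5, 508.0 and 555 (adjusted p = 0.130). GSTU23 read 106.7, 103.9 and 124.0 against 85.7, 92.6 and 102.8 (adjusted p = 0.4205). Intervals of the remaining 4, GSTU16, GSTU22, GSTU25 and GSTU27, ran across 0. GSTU27, a bright member, read 1801, 2005 and 2127 against 2072, 2210 and 1965. Its interval of -0.11 to 0.26 leaves out a 2-fold difference, as far as the spread between arrays includes biological spread. GSTU25, known to act on the explosive TNT, read 1263, 1249 and 1186 against 1190, 1179 and 1003, with a log2 change of -0.14.

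GSTL3, the lambda member and the brightest GST probe set, depended on 1 array. It read 3520, 3790 and 4055 on the auxin arrays and 2935, 2970 and 4170 on the brassinazole arrays. The brassinazole 1 and 2 values lay below every auxin value, and the brassinazole 3 value lay above every one. Its log2 change was -0.19 ± 0.118 (SE; limma adjusted p = 0.381). Without the brassinazole 3 array the change was -0.36 and passed (adjusted p = 0.0197). It also passed without both auxin 1 and brassinazole 3, the arrays whose control probe sets stood apart (-0.41, adjusted p = 0.0210). Both fits leave out the 1 brassinazole value that lay above the auxin values. GSTL3 passed in none of the other 13 alternatives. Without brassinazole 1 or 2 the change was -0.10 and -0.11 (limma adjusted p = 0.6995 and 0.7128).

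**Figure D2:**
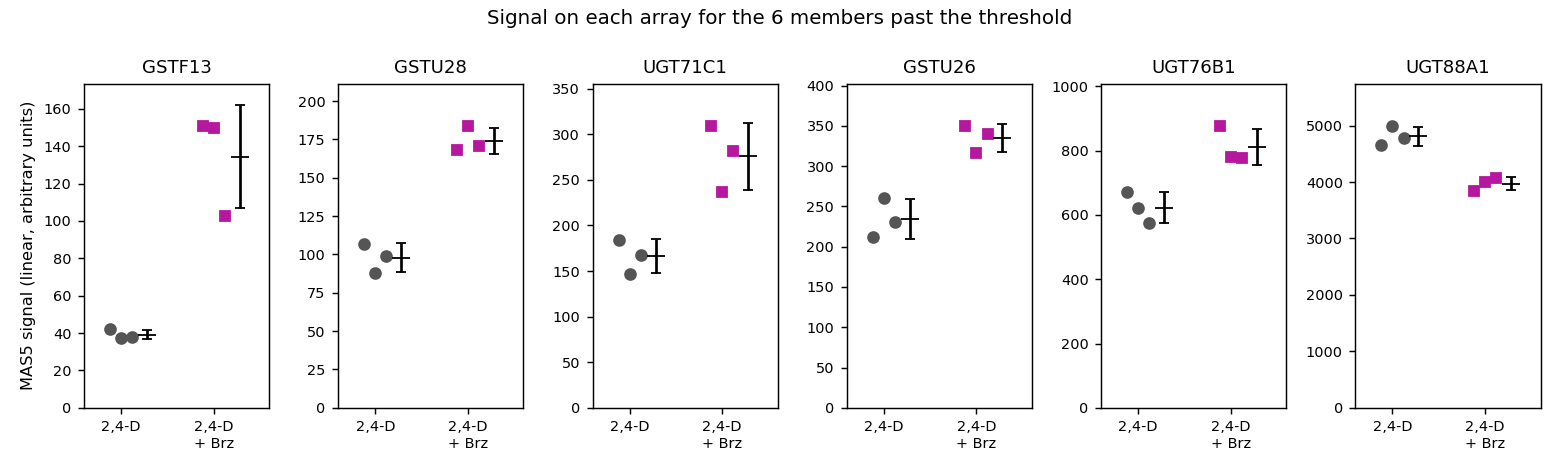
MAS5 signal (linear scale from 0, arbitrary units) on each array for the 6 members past the threshold, with circles for 2,4-D alone, squares for 2,4-D plus brassinazole (Brz) and bars for mean and SD over 3 arrays. In each panel the groups do not overlap, and UGT88A1 is the panel in which the brassinazole values, 3841 to 4071, lie below the auxin values.

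Among UGT genes, UGT71C1 changed most. This enzyme is known to glucosylate flavonols and coumarins in vitro. Its signal was 184.4, 146.9 and 167.6 with 2,4-D alone and 309.2, 236.7 and 282.2 with brassinazole. Every brassinazole value exceeded every auxin value, and the mean rose from 166.3 ± 18.8 to 276.0 ± 36.6 (SD, n = 3 each). The log2 change was 0.68 ± 0.127 (SE; limma adjusted p = 0.00454). None of the other 6 tested members of family 71 passed, and their log2 changes ran from -0.10 for UGT71C4 to 0.24 for UGT71C2.

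UGT76B1, which glucosylates isoleucic acid, salicylic acid and N-hydroxypipecolic acid and is known to restrain salicylate defence, rose by a smaller amount. It read 672.0, 620.3 and 575.9 on the auxin arrays and 877.2, 781.3 and 775.8 on the brassinazole arrays. The groups do not overlap, and the log2 change was 0.37 ± 0.0926 (SE; limma adjusted p = 0.0243). The call did not survive leaving out auxin 2 or 3 (adjusted p = 0.0698 and 0.0921) or brassinazole 1 or 2 (0.102 and 0.0593), nor fitting without the variance trend (0.0768), while the change stayed between 0.32 and 0.43 on leaving out any 1 array.

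UGT88A1, the brightest UGT probe set, was the member that fell. It read 4654, 4995 and 4778 with 2,4-D alone and 3841, 4001 and 4071 with brassinazole. The gap between the groups was larger than the spread within each, yet the difference was small, at a log2 change of -0.28 ± 0.0731 (SE; limma adjusted p = 0.0351), or 1.21-fold. This call sat near the threshold. It did not survive leaving out any 1 of the auxin arrays (adjusted p = 0.0729, 0.130 and 0.0743 for arrays 1 to 3) or the first or the second brassinazole array (0.102 and 0.107). The same held without auxin 1 and brassinazole 3 together (0.0598), with arrays centred on their median (0.0603), when dim probe sets were kept (0.0530) and when the variance trend was dropped (0.115).

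UGTs with a known link to a hormone were examined because the experiment supplied an auxin and blocked the synthesis of a steroid hormone. Of 22 UGT and GST genes listed for such a link, 11 were members and 8 of these were tested. Of the 8, only UGT76B1 passed, beside 7.52% of all probe sets tested. The list is too short for its share to be compared with that. UGT74D1, which glucosylates auxins and the auxin breakdown product oxindole acetic acid, read 1201, 1248 and 1456 against 1229, 1308 and 1342. The 2 sets of values lie in the same range, and the 95% interval of the log2 change ran from -0.20 to 0.19. UGT84B1, which makes the glucose ester of the auxin indole-3-acetic acid, read 4.29 to 23.3 over the 6 arrays and was too dim to be tested. UGT73C5 and UGT73C6, which glucosylate brassinosteroids, were not among the members and were not analysed here.

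The cytokinin N-glucosyltransferases UGT76C1 and UGT76C2 had changes of opposite sign. UGT76C1 read 300.9, 260.6 and 280.0 with 2,4-D alone and 219.5, 232.5 and 218.2 with brassinazole. Its brassinazole values all lay below its auxin values, with a log2 change of -0.31 and an interval from -0.53 to -0.08 that did not pass after adjustment (limma adjusted p = 0.0956). UGT76C2 read 249.6, 343.9 and 258.7 against 340.9, 314.7 and 257.8, which overlap (log2 change 0.10). UGT74F1, which glucosylates salicylic acid, read 57.3 to 61.5 and 66.2 to 81.3 (log2 change 0.22, limma adjusted p = 0.497). UGT71C3, which glucosylates methyl salicylate, read 131.8 to 183.1 over all arrays with a log2 change of 0.00. UGT71C5, an abscisic acid glucosyltransferase outside that list, had a log2 change of -0.07 (interval -0.31 to 0.17), and UGT76E2 one of 0.14 (interval -0.40 to 0.69).

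Several UGTs known from phenylpropanoid and flavonoid metabolism, besides UGT71C1, gave values short of the threshold. UGT84A3, which makes glucose esters of sinapic and other hydroxycinnamic acids, read 308.3, 287.5 and 331.6 with 2,4-D alone and 386.5, 376.2 and 406.0 with brassinazole. The groups are apart, with a log2 change of 0.32 and an interval from 0.11 to 0.53, and it missed the threshold (limma adjusted p = 0.0638). It passed with quantile normalization (0.0494) and in none of the other 14 alternatives. With any 1 array left out the adjusted p was 0.0702 to 0.2007. UGT84A4 of the same group read 166.1, 238.1 and 242.4 against 175.6, 172.0 and 145.5, with a log2 change of -0.35 (adjusted p = 0.1765). The monolignol glucosyltransferases UGT72E1, UGT72E2 and UGT72E3 had log2 changes of -0.05, -0.11 and 0.09, and UGT72B3 of the same family had the lowest p there, with a change of -0.27 (adjusted p = 0.307). The flavonol glycosyltransferases UGT78D1 and UGT78D2, a rhamnosyltransferase and a glucosyltransferase, had changes of -0.14 and 0.15 (adjusted p = 0.4475 and 0.403).

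The remaining families also gave no call. UGT80B1, a sterol glucosyltransferase also known as TT15, read 416.6, 404.0 and 399.1 with 2,4-D alone and 360.9, 345.7 and 319.3 with brassinazole. All 3 brassinazole values lay below the auxin values, at a log2 change of -0.24 (interval -0.44 to -0.04, limma adjusted p = 0.148). In family 73, whose members UGT73B4 and UGT73B5 are known from redox and pathogen responses, the 4 tested members had changes of 0.08 to 0.21. UGT73B4 read 360.5, 388.1 and 364.6 against 425.0, 397.8 and 445.9, which do not overlap (log2 change 0.18, adjusted p = 0.287). In family 85 the change was negative in 4 of 5 members and ran from -0.34 for UGT85A3 (adjusted p = 0.362) to 0.06 for UGT85A2. UGT74B1, which acts in glucosinolate synthesis, had a change of 0.00 (interval -0.24 to 0.24), and UGT87A2 one of 0.03.

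**Figure D3:**
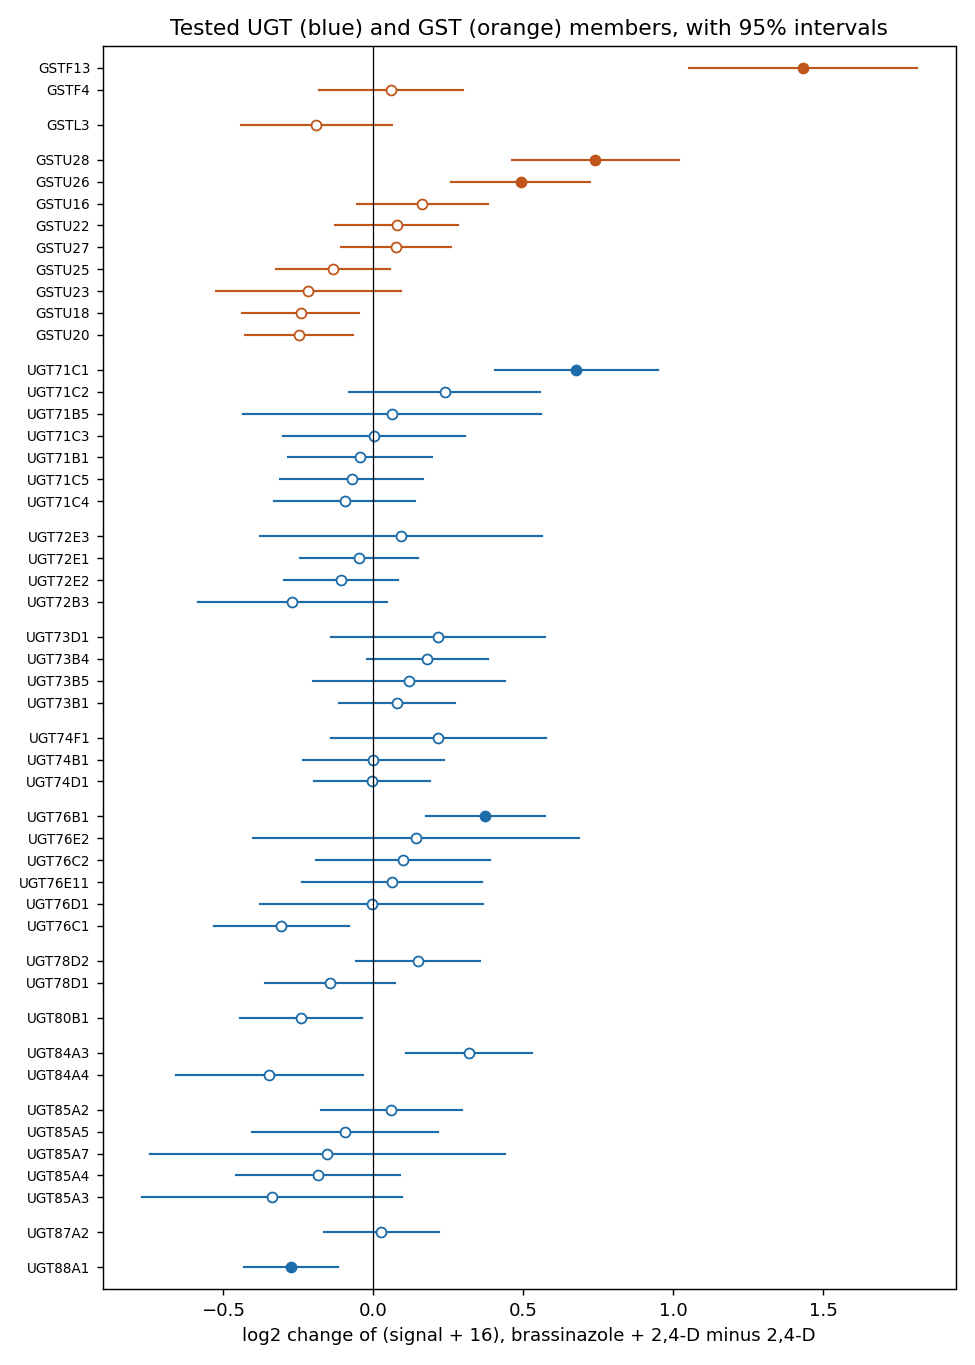
Log2 change (points) and 95% limma interval (lines) of the 48 tested members, grouped by family or class, with UGT in blue and GST in orange and with filled points for members past the threshold. GSTF13 stands apart at 1.43, and most intervals cross 0.

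For most members without a call, the intervals bounded the difference between these arrays. They rest on the spread between arrays, which may be only technical, so a larger difference between seedlings could have been missed. The median half-width of the 95% interval was 0.26 for tested UGT and 0.225 for tested GST members on the log2 scale. In all 42 tested members that did not pass, the interval lay between -1 and 1, and in 29 of the 42 between -0.5 and 0.5. Because of the added 16, a 2-fold difference in signal is less than 1 on this scale for dim members. Computed from each auxin mean, a halved and a doubled signal both lay outside the interval in 40 of the 42, and a halved signal lay inside it for the dim members UGT85A3 and UGT85A7. The SE ran from 0.0731 for UGT88A1 to 0.275 for UGT85A7, a dim member that read 28.6, 96.7 and 45.8 on the brassinazole arrays.

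The filter left out 13 members, whose signals lay between 1.19 and 47.5 on every array. They were GSTU15, GSTU21, UGT71B6, UGT71B8, UGT73C1, UGT73C2, UGT73C7, UGT76E1, UGT76E12, UGT78D3, UGT84A1, UGT84B1 and UGT84B2. The groups overlapped in all 13. No detection calls were available, so whether these transcripts were present was not determined. UGT73C1, for example, read 4.06, 27.2 and 43.0 with 2,4-D alone and 39.7, 47.5 and 46.1 with brassinazole.

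Many UGT and GST genes lie in tandem copies, so genome neighbours were compared. In the gene order of the TAIR10.1 table, 37 of the 61 members fell into 15 groups in which members of a family were separated by at most 2 other protein-coding genes. Of these groups, 8 held at least 2 tested members. Among the members past the threshold, only GSTU26 and UGT71C1 lay in any of the 15 groups, each in a different one. No pair of neighbours could therefore have both members past the threshold. GSTU26 rose while its neighbour GSTU25 had a log2 change of -0.14, a difference of 0.63 between the changes. UGT71C1 rose and its neighbour UGT71C2 had a change of 0.24, a difference of 0.44. The neighbours UGT84A3 and UGT84A4 differed by 0.67, and UGT76C2 and UGT76C1 by 0.41. Among 17 pairs of tested neighbours, 10 had changes of opposite sign. The 48 tested members themselves split about evenly, 26 positive and 22 negative, so this count does not show that neighbours diverge. Some pairs also share a member, and some of the 10 rest on UGT71C3, whose change was 0.0016. The difference within a pair reached an exact permutation p of 0.1 (two-sided) in 5 of 17 pairs, the smallest that 3 against 3 arrays can give, and 0.34 after Benjamini-Hochberg adjustment over the 17. No pair could have passed at this number of arrays whatever its values, so this test says nothing on whether neighbours differ. Close copies can also bind each other's probes, and the extent was not tested. No member's probe set carried the suffix that the array maker uses for probes shared between transcripts. The rule admitted only probe sets annotated to 1 gene, so this absence says little on such binding.

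**Figure D4:**
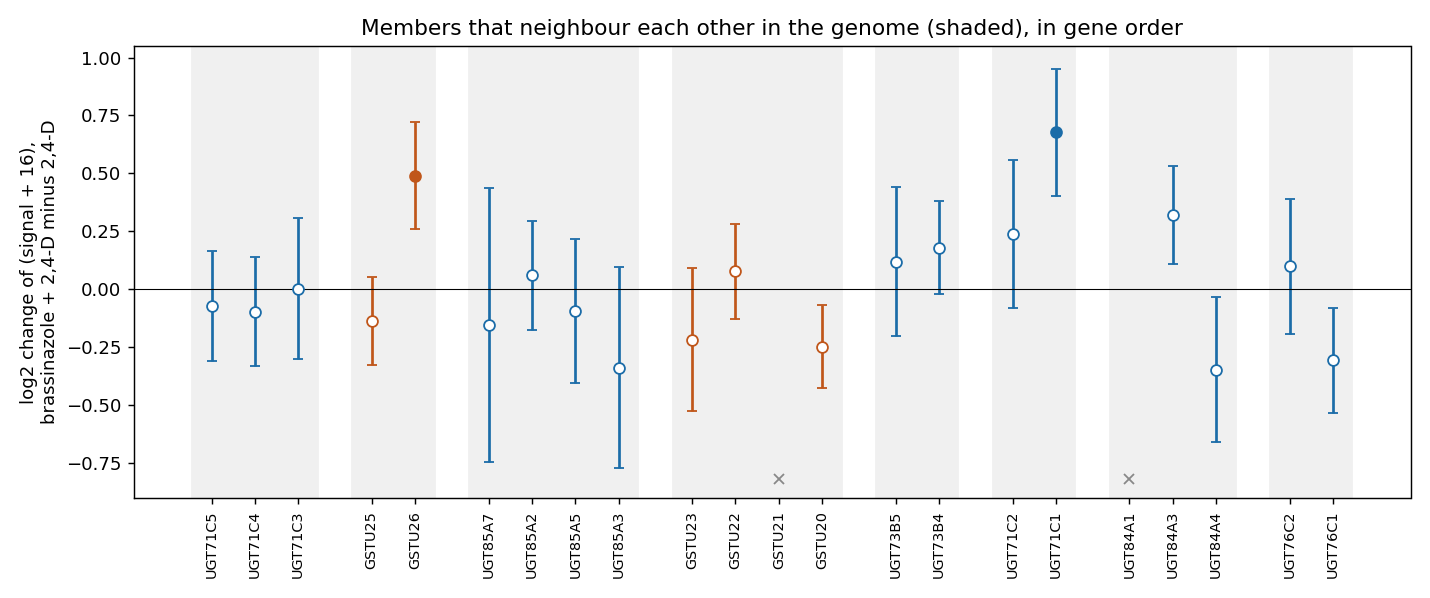
Log2 change (vertical axis) with 95% limma intervals of neighbouring UGT (blue) and GST (orange) members in gene order, each shaded block being 1 of the 8 groups with at least 2 tested members. Filled points passed the threshold, and crosses at the lower edge mark GSTU21 and UGT84A1, which were too dim to be tested and have no value; GSTU26 and UGT71C1 each passed next to a neighbour that did not.

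Other genes of the pathway were sparsely covered by the annotation, in which 8794 of 22810 probe sets had no entry. Whether the array holds probes for the genes without a named probe set was not determined. Of 26 loci listed for glutathione supply and recycling, export of conjugates, reductive detoxification and its regulators, 2 had a named probe set. Both encode glutathione reductases, which regenerate glutathione, and 0 of 2 passed with limma (0 at an unadjusted p under 0.05). GR1 read 1773, 1864 and 1818 with 2,4-D alone and 1823, 1746 and 1340 with brassinazole, with a log2 change of -0.16, and its brassinazole 3 value was the lowest of the 6. GR2 read 1938 to 2301 and 1868 to 2505 (log2 change 0.02). A further 4 genes bear a UGT name as a synonym and so lay outside the symbol rule. UGT72B1, which conjugates monolignols and chlorinated pollutants, and the sterol glucosyltransferase UGT80A2 missed the threshold, with changes of 0.01 and 0.10 on the log2 scale (limma adjusted p = 0.968 and 0.643). UGT79B1 and UGT79B6 were too dim to be tested. Another 3 probe sets matched several genes, at least 1 of them a UGT or GST, and were given no name.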

How the data were processed

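Total RNA of 6 samples was measured on Affymetrix arrays, and the sample titles gave the groups and replicate numbers. The deposited values are linear intensities, 1 per probe set. Per the submitters' processing notes the tool was MAS5. Its version and detection calls are not given in the sources. The mean over the middle 96% of values was about 500.0 on every array, so the deposited intensities were already scaled. Each array's mean is thus fixed, and a shift of most transcripts would not be seen. The number of arrays limits the precision.

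Of 22810 probe sets, 64 controls were left out. The intensities were put on a log2 scale after adding 16, and probe sets with a mean under the 25th percentile (a signal of about 34.2) were left out. This scale understates changes of dim probe sets. Testing used limma 3.58.1 under R 4.3.3 (lmFit, eBayes with a variance trend). Tests were two-sided, and p-values were adjusted by Benjamini-Hochberg over 17059 probe sets. The deviations of same-numbered arrays correlated at 0.037 to 0.063, and those of differently numbered arrays at -0.042 to -0.0099. Because the values are small, the main fit did not take the numbers as pairs. A fit with the number as a block is given below. Names came from the platform annotation, which can be old, and neighbours from the RefSeq TAIR10.1 gene order; no coordinates are given, since the array files name no build. Neighbours were compared with scipy 1.17.1. Promoter and protein sequences were not used here.

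Members, gene lists and tests were chosen with earlier results of these data known. Genes were named by rule: members past the threshold, the lowest p of each family without one, the 3 brightest of each class, those with a hormone link and those left out by the filter. Other members named were chosen after their values were seen. In 10 simulated data sets, each with 200 of 17059 probe sets altered, 67.5% of log2 changes of 0.5, 97.3% of 1 and 100% of 2 were recovered, and 5.92% of calls were false. The simulated noise was independent and normal, without the differences between arrays and groups seen in the controls. In the data 1282 probe sets passed, so these rates need not hold there. In all, 15 alternatives were tried.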

Additional observations from a re-analysis of the deposited data

How the results depend on the processing

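GSTF13, GSTU28 and UGT71C1 kept direction and call in every alternative in which they were tested. The first 2 were left out by a filter at the 50th percentile, which brought the UGT and GST medians to -0.025 and -0.030. The GST count there was 1 of 8 (12.5%), beside 9.35% of all probe sets. Without the variance trend the UGT count was 1 and the count over all probe sets 755, and without auxin 1 and brassinazole 3 together the latter was 815 and the GST median 0.0385. Centring arrays on their median gave a GST median of 0.0888. With any 1 array left out, the UGT count was 1 to 3 (1 without auxin 2, auxin 3, brassinazole 1 or brassinazole 2), the GST count 2 to 4, the count over all probe sets 821 to 1157, the UGT median -0.0091 to 0.0091 and the GST median 0.018 to 0.095. Fewer arrays alone give fewer calls.

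The sign of members near 0 was not stable. UGT74D1 (-0.01) turned to 0.0156 with centred arrays and 0.0117 with quantile normalization, and ran from -0.0604 to 0.0771 with 1 array left out. UGT71C3 ran from -0.089 to 0.1261, UGT72E1 from -0.1301 to 0.0002, UGT76E2 from -0.0265 to 0.42 and UGT87A2 from -0.0048 to 0.0721. Without auxin 1 and brassinazole 3, UGT71C3, UGT72E1, UGT74D1 and UGT76E2 were at -0.1214, 0.0366, -0.0873 and -0.1841. The cause was not tested.

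With the replicate number as a block, the UGT, GST and overall counts were 3, 3 and 1280, and the calls of the 6 members were unchanged. Each array's deviations correlated best with those of the array of its own number. This is a hint from the data and not from the design. Pseudocounts of 1 and 64 changed no call of a named member. Dim members are limited by signal.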
